A study of Mus musculus with 5 samples.

Results

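The genes described here are 6 osteoblast transcription factors, Runx1, Runx2, Runx3, Cbfb, Sp7 and Atf4, chosen by name from the 30046 features of the count table. They were measured by bulk RNA-seq in stromal cells of the mouse femur, sorted at postnatal day 21. By the paper's account the sorted cells had high GFP and were positive for tdTomato. All mice carried Cxcl12(GFP/+), which puts GFP in place of 1 Cxcl12 allele and marks CXCL12-abundant reticular (CAR) cells of the marrow, together with R26R(tdTomato/+), a reporter that turns on permanently after recombination. The 3 libraries of Dlx5CE-E12.5 cells came from mice that also had the genotype Dlx5(CreER/+), in which the tamoxifen-inducible recombinase labels early perichondrial cells and occupies 1 Dlx5 allele. The 2 libraries of Fgfr3CE-E12.5 cells came from mice with Fgfr3-iCreER, a transgene that labels fetal chondrocytes. Tamoxifen was given at embryonic day 12.5 in both groups, cells of littermates were pooled by genotype, and the Fgfr3CE-E12.5 libraries are numbered 2 and 3 after their labels. The question was whether stromal cells of perichondrial origin differ from stromal cells of cartilage origin in these factors.

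RUNX proteins bind DNA as dimers with CBFβ, the product of Cbfb, which does not touch DNA itself but stabilizes the complex. Runx2 is the master factor of osteoblast commitment and also drives the hypertrophy of chondrocytes, Runx1 is best known for making blood stem cells, and Runx3 acts in T cells, neurons and cartilage. Sp7, also called osterix, is a zinc finger protein that acts downstream of Runx2 and is needed for bone formation. Atf4 is a basic leucine zipper factor of the integrated stress response that supplies osteoblasts with amino acids for collagen synthesis, and its protein level is set in large part at translation, which mRNA does not show.

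All 6 genes passed the filter on low counts, which asked for 10 CPM (read counts scaled to the same library total) or more in 2 or more libraries. The 6 factors did not move in a common direction. Cbfb and Sp7 were higher in Fgfr3CE-E12.5 cells by 4.08-fold and 2.04-fold. Runx1 was higher in Dlx5CE-E12.5 cells by 2.05-fold. Runx2 and Atf4 were also higher in Dlx5CE-E12.5 cells, but by less than 2-fold, and the libraries overlapped for Runx3. Genes were called with edgeR's quasi-likelihood test when the Benjamini-Hochberg adjusted p was under 0.05 and the change exceeded 2-fold, a log2 fold change beyond 1 in either direction. By this rule 3 of the 6 factors were called, against 29.5% of the 10088 genes tested. Higher in Fgfr3CE-E12.5 cells were 2 of the 6, where 16.4% of all tested genes (1653) were, and 1 was higher in Dlx5CE-E12.5 cells, where 13.1% (1318) were. An adjusted p under 0.05 was reached by 5 of the 6, against 48.4% of all genes tested, with 2 of them higher in Fgfr3CE-E12.5 cells (25.0% of all genes) and 3 in Dlx5CE-E12.5 cells (23.4%). The libraries of the groups did not overlap for 5 of the 6, against 68.9%. The median log2 fold change (Fgfr3CE-E12.5 over Dlx5CE-E12.5) of all genes tested was 0.01. With normalization by library size alone it moved to 0.22, with 1985 genes higher in Fgfr3CE-E12.5 cells and 1009 higher in Dlx5CE-E12.5 cells.

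**Figure D1:**
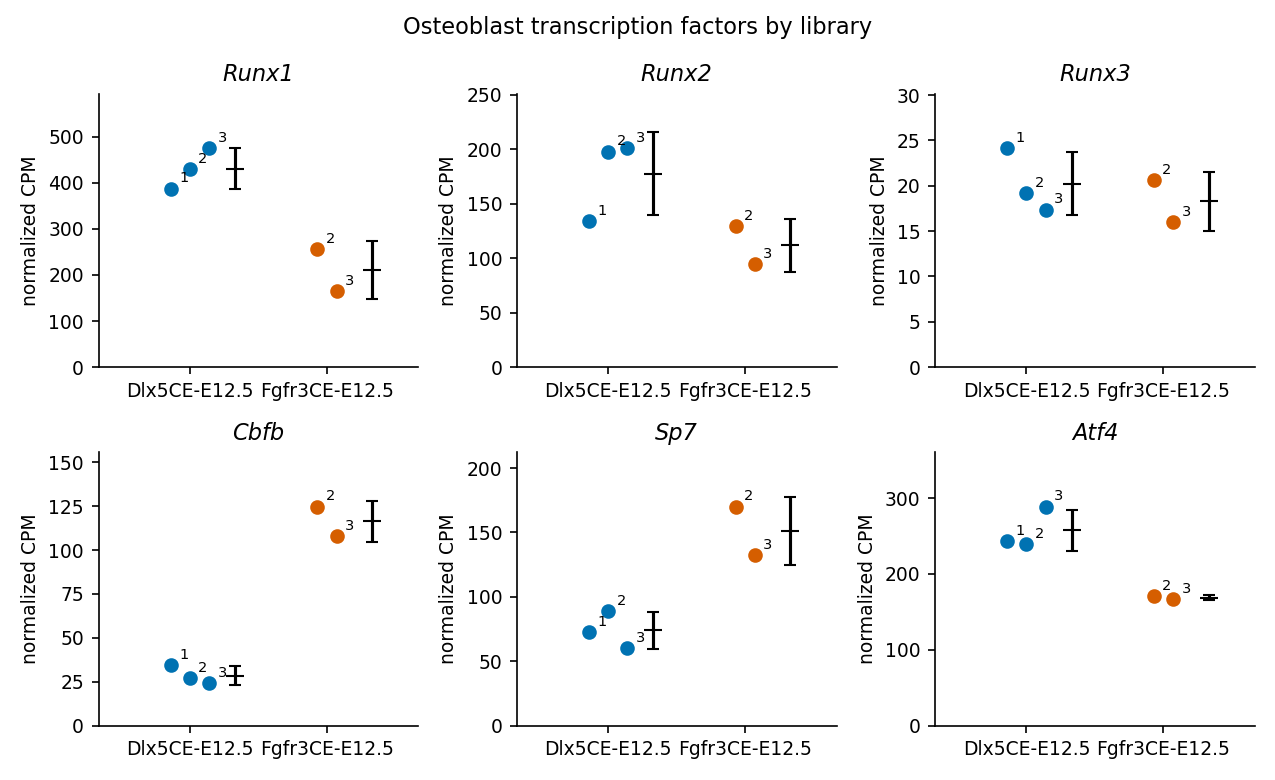
Normalized CPM (vertical axes, each starting at 0) of the 6 factors in each library, with replicate numbers beside the points and bars for the mean ± SD of 3 Dlx5CE-E12.5 and 2 Fgfr3CE-E12.5 libraries. The libraries of the groups are apart for every factor except Runx3. In all 6 panels Fgfr3CE-E12.5 replicate 3 lies below replicate 2, an order whose share over all genes is not given here.

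Total counts ranged from 22035650 to 32563758 in Dlx5CE-E12.5 libraries and were 56355203 and 58166285 in Fgfr3CE-E12.5 libraries. At these depths 3 counts correspond to a normalized CPM between 0.0473 and 0.141, far under every value of the 6 factors. The study's methods give a different sequencer, with paired reads, for the Dlx5CE-E12.5 libraries than for the Fgfr3CE-E12.5 libraries, with single reads (the labels name the same instrument for all), so read type and lineage cannot be told apart. RNA of the CAR cell genes Cxcl12 and Lepr was present in every library. Cxcl12 had a normalized CPM of 22405, 22351 and 21252 in Dlx5CE-E12.5 cells and of 8068 and 5802 in Fgfr3CE-E12.5 cells. Its presence was set by the sort, which used GFP from the Cxcl12 locus. The leptin receptor gene Lepr had 1528, 1516 and 1594 against 1087 and 523. Fgfr3, whose regulatory sequence drives the recombinase in the latter group, had 75.5, 98.5 and 79.8 against 149 and 122 (log2 fold change 0.68 ± 0.17, SE, edgeR adjusted p = 0.0137). Markers of other cells differed between the groups. Of 28 leukocyte markers tested of 35 listed, 25 were called higher in Fgfr3CE-E12.5 cells, where 16.4% of all tested genes were. The other 3 were not called, and the median log2 fold change was 2.01. Only 25 were tested without Fgfr3CE-E12.5 replicate 2 and 24 without replicate 3, so some needed these libraries to pass the filter. The summed normalized CPM of the leukocyte markers was 2013 to 2695 in Dlx5CE-E12.5 libraries, 6208 in Fgfr3CE-E12.5 replicate 2 and 13165 in replicate 3. Chondrocyte markers summed to between 32.7 and 40.3 in Dlx5CE-E12.5 libraries and to 3418 and 454 in Fgfr3CE-E12.5 replicates 2 and 3. Of 5 chondrocyte markers tested of 15, 4 were called higher in Fgfr3CE-E12.5 cells. These 4 passed the filter only through the Fgfr3CE-E12.5 libraries, so they had to differ, and without either of these libraries they were not tested. Osteoclast markers (2 tested of 7, 1 called higher in Fgfr3CE-E12.5 cells) summed to 189 to 195 and to 248 and 248. Endothelial markers (1 tested of 8, Pecam1, with an edgeR adjusted p of 0.0504) summed to 23.6 to 48.2 and to 35.4 and 52.5. Erythroid markers (8 tested, 2 called higher in Dlx5CE-E12.5 cells) summed to 17605 to 35943 and to 13573 and 20165. The largest called log2 fold changes were those of Vav1 (3.11), Myb (2.97) and Kit (2.96) among leukocyte markers, Col2a1 (8.63), Col9a3 (7.23) and Col11a2 (4.24) among chondrocyte markers and Acp5 (2.07) of osteoclasts, with Hbb-bt (-1.27) and Hba-a1 (-1.18) among erythroid markers, both within the fold threshold once the length trend was removed (-0.68 and -0.74). Of 12 CAR cell markers, 9 were called higher in Dlx5CE-E12.5 cells, where 13.1% of all tested genes were. They were led by Kitl (-2.80), Igfbp5 (-2.32) and Il7 (-2.22), and Foxc1 (2.82) was called higher in Fgfr3CE-E12.5 cells. The paper had already reported Cxcl12, Kitl, Lepr, Adipoq, Lpl and Ebf3 of this list as higher in Dlx5CE-E12.5 cells. It used these same libraries, so the count is not independent of that report. In bulk libraries like these, fewer cells of a type and less RNA per cell cannot be told apart.

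Runx2 (ENSMUSG00000039153) lies on the minus strand of chromosome 17 at 44495987 to 44814797 (GRCm38). It had a normalized CPM of 134, 198 and 201 in Dlx5CE-E12.5 replicates 1, 2 and 3, and of 129 and 94.6 in Fgfr3CE-E12.5 replicates 2 and 3. Every Dlx5CE-E12.5 library was above both Fgfr3CE-E12.5 libraries, but Dlx5CE-E12.5 replicate 1 exceeded Fgfr3CE-E12.5 replicate 2 only narrowly. The means were 178 ± 37.9 (SD, n = 3) and 112 ± 24.5 (SD, n = 2), a log2 fold change of -0.67 ± 0.23 (SE, 95% interval -1.21 to -0.12, edgeR adjusted p = 0.0493). This adjusted p lies at the threshold: it was 0.278 without Fgfr3CE-E12.5 replicate 3, 0.137 without Dlx5CE-E12.5 replicate 2 and 0.125 without Dlx5CE-E12.5 replicate 3, with edgeR's quasi-likelihood test in each case. It was also 0.137 with normalization by library size alone and 0.0186 with the Wald test of DESeq2, and the fold threshold was not passed in any of these settings. The antisense gene Runx2os1 shares 519 exon bases with Runx2 and had 57 to 168 counts per library, compared with 4106 to 7953 for Runx2.

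Runx1 (ENSMUSG00000022952; chromosome 16, 92601466 to 92826149, minus strand) was, per kb of exon, the most abundant of the RUNX genes in every library. Its normalized CPM was 387, 430 and 475 in Dlx5CE-E12.5 cells and 256 and 166 in Fgfr3CE-E12.5 cells. The lowest Dlx5CE-E12.5 library was well above the higher Fgfr3CE-E12.5 library. Means were 431 ± 43.9 (SD, n = 3) and 211 ± 63.7 (SD, n = 2), and the log2 fold change was -1.03 ± 0.22 (SE, 95% interval -1.55 to -0.51, edgeR adjusted p = 0.00785). The direction held in every setting tried, but the fold sat at the threshold: it was -0.69 without Fgfr3CE-E12.5 replicate 3, -0.96 without Dlx5CE-E12.5 replicate 3 and -0.53 once the trend of fold change with exon length was removed, so that the call ended with an edgeR adjusted p still under 0.05 (0.0268, 0.0232 and 0.0346). Runx1 has the longest exon sequence of the 6 factors, 12025 bases.

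Runx3 (ENSMUSG00000070691; chromosome 4, 135120652 to 135177990, plus strand) was the least abundant of the 6 factors per kb of exon. Its normalized CPM was 24.1, 19.2 and 17.4 in Dlx5CE-E12.5 cells and 20.6 and 16.0 in Fgfr3CE-E12.5 cells, so the groups overlapped. The means of 20.2 ± 3.50 (SD, n = 3) and 18.3 ± 3.25 (SD, n = 2) differed by less than the spread between replicates, with a log2 fold change of -0.14 ± 0.22 (SE, edgeR adjusted p = 0.626). The 95% interval of -0.68 to 0.39 leaves room for a change of either sign. The sign turned without Fgfr3CE-E12.5 replicate 3 (0.09), without Dlx5CE-E12.5 replicate 1 (0.0013) and with normalization by library size alone (0.06).

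Runx1 and Runx3 are also expressed by blood cells, which makes the leukocyte markers of interest beside them. The leukocyte marker Ptprc, which encodes CD45, had a normalized CPM of 45.5, 35.6 and 26.7 in Dlx5CE-E12.5 cells and of 65.0 and 113 in Fgfr3CE-E12.5 cells (log2 fold change 1.31 ± 0.29, SE, edgeR adjusted p = 0.00981). Spi1, a master factor of myeloid cells, had 15.5, 19.5 and 18.6 against 48.4 and 173 (2.63 ± 0.47, SE, edgeR adjusted p = 0.00376), while the T cell marker Cd3e stayed between 0 and 0.694. Of the 35 leukocyte markers, 30 were higher in Fgfr3CE-E12.5 replicate 3 than in replicate 2. Both Runx1 and Runx3 had their lowest value of the 5 libraries in Fgfr3CE-E12.5 replicate 3, the library with the most leukocyte marker RNA. Runx2 and Atf4 were also lowest in that library, and all 6 factors were lower there than in replicate 2. The share of all tested genes with this order is not given here. How much of the Runx1 and Runx3 RNA in any library came from blood cells was not tested.

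Cbfb (ENSMUSG00000031885; chromosome 8, 105170674 to 105217989, plus strand) differed most among the 6 factors. Its normalized CPM was 34.5, 26.9 and 24.1 in Dlx5CE-E12.5 cells and 125 and 108 in Fgfr3CE-E12.5 cells. Both Fgfr3CE-E12.5 libraries were more than 3 times the highest Dlx5CE-E12.5 library. Means were 28.5 ± 5.40 (SD, n = 3) and 116 ± 11.7 (SD, n = 2), a log2 fold change of 2.03 ± 0.19 (SE, 95% interval 1.59 to 2.47, edgeR adjusted p = 0.000256). Cbfb was called in all 18 alternative settings, at log2 fold changes from 1.65 to 2.24. No 50-base stretch of its transcripts occurs in the annotated transcripts of another gene.

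The counts of the RUNX genes share little sequence with one another either. No 50-base window of Runx1, Runx2 or Runx3 occurs in another RUNX gene, and the windows found in any other gene came to 0.47% for Runx1, 5.66% for Runx2, where Runx2os1 held most of them, and 1.13% for Runx3. Levels were set side by side per kilobase of exon, a measure that depends on the length taken for each gene. The summed RUNX level was 52.2, 62.0 and 65.7 CPM per kb in Dlx5CE-E12.5 cells and 40.0 and 27.7 in Fgfr3CE-E12.5 cells, while Cbfb had 9.92, 7.74 and 6.91 against 35.8 and 31.1. In Dlx5CE-E12.5 cells the mRNA of the DNA-binding subunits thus exceeded that of the partner 5.26, 8.01 and 9.51 times, whereas in Fgfr3CE-E12.5 cells the ratio was 1.12 and 0.891. With the longest transcript as length, the ratios were 7.79, 11.7 and 14.0 against 1.60 and 1.26. These ratios are within single libraries, so the scaling between libraries does not enter them, and they are given without a test. Effects of gene length do enter them. Removing the length trend gave log2 fold changes of -0.53 for Runx1, -0.42 for Runx2 and 1.83 for Cbfb, where the main fit gave -1.03, -0.67 and 2.03.

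**Figure D2:**
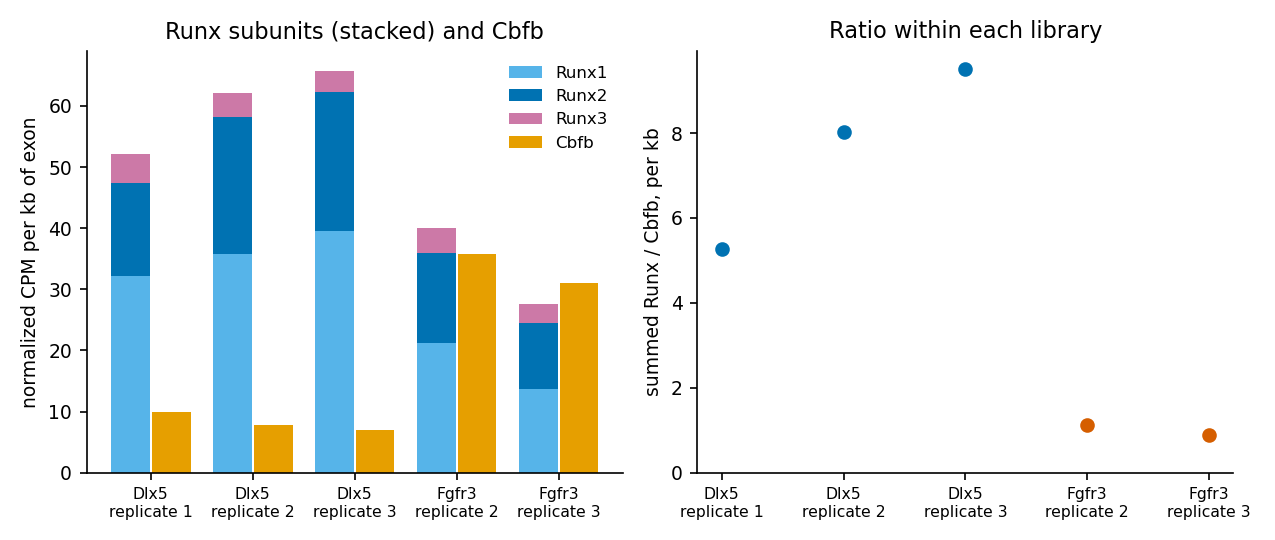
Left, normalized CPM per kb of exon in each library, with Runx1, Runx2 and Runx3 stacked beside Cbfb, and right, the summed RUNX level divided by the Cbfb level in the same library. The ratio is 5.26 to 9.51 in the Dlx5CE-E12.5 libraries and close to 1 in the Fgfr3CE-E12.5 libraries, with the taller Cbfb bars and shorter RUNX stacks both visible on the left.

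The make-up of the RUNX mRNA varied less than its ratio to Cbfb. Runx1 held 61.7%, 57.7% and 60.1% of the summed level per kb in Dlx5CE-E12.5 cells and 53.1% and 49.7% in Fgfr3CE-E12.5 cells. Runx2 held 29.0%, 36.1% and 34.6% against 36.6% and 38.7%, and Runx3 held 5.28% to 9.25% against 10.3% and 11.6%. Runx1 was therefore the leading subunit in both groups, and the libraries of the groups did not overlap in the shares of any of the RUNX genes. The gap was narrow for Runx2, at 36.1% in Dlx5CE-E12.5 replicate 2 against 36.6% in Fgfr3CE-E12.5 replicate 2. The shares of a library add up to the whole, so they are not separate results. By normalized CPM, 68.9% of all genes tested had no overlap between the groups. Gene length enters these shares too: with its trend removed, the log2 fold changes were -0.53 for Runx1, -0.42 for Runx2 and -0.33 for Runx3.

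Sequence before the RefSeq starts of these genes is shown for those whose window held the letters of a RUNX site or a GC box. The GC box is the site type of Sp proteins. Windows of 250 bases before each RefSeq start on GRCm38.p6 were searched on both strands for the RUNX core (TGTGGT or TGCGGT), the GC box (GGGCGG), the cyclic AMP response element (TGACGTCA) and the Atf4 element (TGATGCAA). Of 32851 windows of all genes, these occurred in 18.6%, 32.7%, 1.55% and 0.791%. The distal Runx3 window, chr4:135120395-135120644 on the plus strand, held the RUNX core 2 times, at 134 and 126 bases before the start. The Cbfb window, chr8:105170424-105170673 on the plus strand, held 4 GC boxes, at 240, 76, 24 and 7 bases before the start, and no RUNX core. A Runx2 window held 1 RUNX core, 80 bases before the start, which is shown with its flanks from chr17:44814690-44814719 on the minus strand. Of the 250 bases of this Runx2 window, 170 lie in annotated exons of Runx2. The site shown lies before this RefSeq start but inside the annotated Runx2 gene. Each sequence reads 5′ to 3′ on the gene's strand, and capitals mark the RUNX core (as its reverse complement) or the GC box.
Runx3: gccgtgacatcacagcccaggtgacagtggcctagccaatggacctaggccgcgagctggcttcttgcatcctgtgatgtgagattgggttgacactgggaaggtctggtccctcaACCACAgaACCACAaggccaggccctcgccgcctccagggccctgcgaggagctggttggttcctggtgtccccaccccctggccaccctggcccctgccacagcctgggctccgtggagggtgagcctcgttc
Runx2: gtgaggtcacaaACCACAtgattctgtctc
Cbfb: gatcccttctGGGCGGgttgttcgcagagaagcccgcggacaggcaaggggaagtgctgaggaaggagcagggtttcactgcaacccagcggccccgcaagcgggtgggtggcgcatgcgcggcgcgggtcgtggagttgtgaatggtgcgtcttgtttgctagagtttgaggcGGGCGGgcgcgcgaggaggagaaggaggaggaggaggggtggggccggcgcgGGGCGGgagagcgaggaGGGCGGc
The proximal Runx3 window held 3 GC boxes. Neither of the 2 Runx1 windows nor the Atf4 window held any of the 4 motifs. These matches describe letters only and no binding was measured here.

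Sp7 (ENSMUSG00000060284; chromosome 15, 102356606 to 102367182, minus strand) was higher in Fgfr3CE-E12.5 cells, opposite in direction to Runx2. Its normalized CPM was 72.8, 88.9 and 60.5 in Dlx5CE-E12.5 cells and 170 and 132 in Fgfr3CE-E12.5 cells, with no overlap. The means were 74.0 ± 14.2 (SD, n = 3) and 151 ± 26.6 (SD, n = 2). The log2 fold change of 1.03 ± 0.20 (SE, edgeR adjusted p = 0.00513) had a 95% interval of 0.56 to 1.50, and it fell under the fold threshold without Dlx5CE-E12.5 replicate 3 (0.90) and without Fgfr3CE-E12.5 replicate 2 (0.91). Per kb of exon, Sp7 stood at 1.41, 1.17 and 0.782 times Runx2 in Dlx5CE-E12.5 cells and at 3.42 and 3.64 times Runx2 in Fgfr3CE-E12.5 cells. The libraries of the groups did not overlap in this ratio. Gene length enters it as well: with the length trend removed, the log2 fold changes were 0.83 for Sp7 and -0.42 for Runx2. Chondrocytes also express Sp7 and Runx2, and Col2a1, their main collagen gene, had a normalized CPM of 2598 and 343 in Fgfr3CE-E12.5 replicates 2 and 3 against 0.756 to 7.01 in Dlx5CE-E12.5 cells. Col10a1, the collagen of hypertrophic chondrocytes, had 21.9 and 0.221 against 0 in all 3 Dlx5CE-E12.5 libraries. The part of these cells in the Sp7 difference was not tested.

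Atf4 (ENSMUSG00000042406; chromosome 15, 80255184 to 80257541, plus strand) was lower in Fgfr3CE-E12.5 cells. Its normalized CPM was 244, 240 and 289 in Dlx5CE-E12.5 cells and 171 and 166 in Fgfr3CE-E12.5 cells, and the groups were clearly apart. The means were 257 ± 27.2 (SD, n = 3) and 169 ± 3.07 (SD, n = 2), with a log2 fold change of -0.61 ± 0.15 (SE, 95% interval -0.96 to -0.26, edgeR adjusted p = 0.0126). The change was 1.53-fold and so under the fold threshold. Without Fgfr3CE-E12.5 replicate 3 the edgeR adjusted p was 0.0542.

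**Figure D3:**
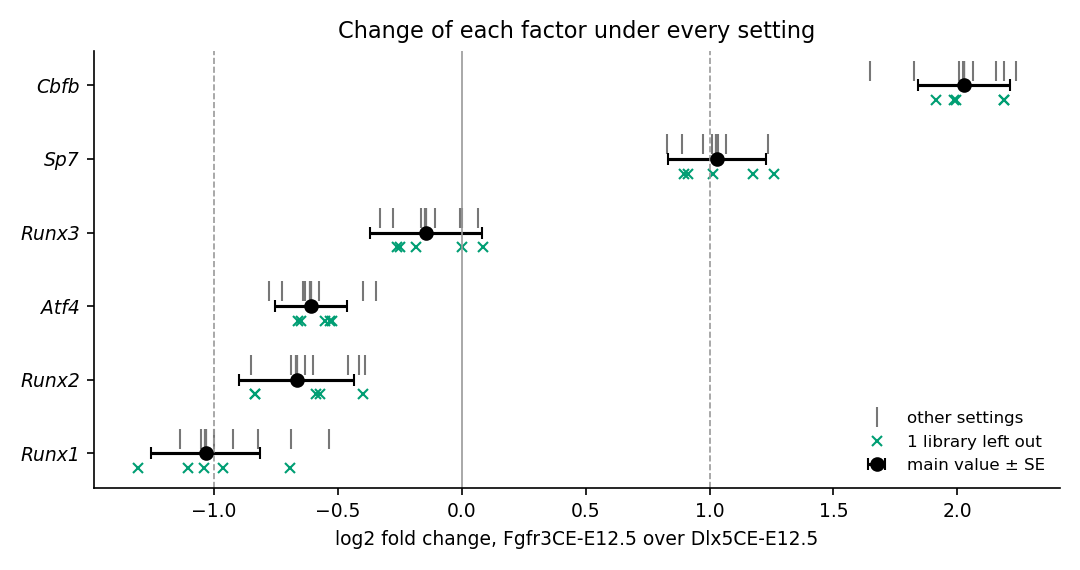
Log2 fold change (Fgfr3CE-E12.5 over Dlx5CE-E12.5) of the 6 factors with its SE, with grey ticks for other settings and green crosses for fits with 1 library left out, and dashed lines at the fold threshold. Cbfb stays between 1.65 and 2.24 throughout, Runx1 and Sp7 straddle their thresholds, and Runx3 lies on both sides of 0.

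Per kb of exon, Atf4 was the most abundant factor and Runx3 the least in both groups. In Dlx5CE-E12.5 cells the order was Atf4 (109 ± 11.5 CPM per kb, SD, n = 3), Runx1 (35.8 ± 3.65), Sp7 (21.8 ± 4.19), Runx2 (20.1 ± 4.29), Cbfb (8.19 ± 1.55) and Runx3 (4.04 ± 0.70). Sp7 and Runx2 did not differ beyond their spread, and they changed places when the longest transcript was taken as length. In Fgfr3CE-E12.5 cells the order was Atf4 (71.5 ± 1.30 CPM per kb, SD, n = 2), Sp7 (44.5 ± 7.83), Cbfb (33.4 ± 3.36), Runx1 (17.5 ± 5.29), Runx2 (12.7 ± 2.77) and Runx3 (3.66 ± 0.65). Here Sp7 and Cbfb were separated by about their spread, Runx1 and Runx2 overlapped, and Sp7 and Cbfb had both moved ahead of Runx1. In all 6 factors Fgfr3CE-E12.5 replicate 3 was lower than replicate 2, by a ratio of 1.54 for Runx1, 1.37 for Runx2, 1.29 for Runx3, 1.28 for Sp7, 1.15 for Cbfb and 1.03 for Atf4. Other genes shared this order: only 1 of 12 CAR cell markers and 1 of 10 regulators of Atf4 were higher in replicate 3. By contrast, 24 of 41 Atf4 targets and 30 of 35 leukocyte markers were higher there.

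Proteins that assist or restrain RUNX factors formed the first of the surrounding gene lists. Of 27 tested of 28, 7 were called higher in Fgfr3CE-E12.5 cells and 1 in Dlx5CE-E12.5 cells, a share of 25.9% and 3.70% where all genes tested gave 16.4% and 13.1%. The median log2 fold change was 0.15, compared with 0.01 for all genes tested. Twist1, which blocks the DNA contact of Runx2, had a normalized CPM of 2.45, 5.23 and 4.45 in Dlx5CE-E12.5 cells and of 34.1 and 40.3 in Fgfr3CE-E12.5 cells (3.21 ± 0.32, SE, edgeR adjusted p = 0.000382). Smad4, the common mediator of BMP and TGFβ signals, had 27.7, 25.5 and 30.7 against 187 and 147 (2.58 ± 0.16, SE, edgeR adjusted p = 6.44e-05). Aes, a short relative of the Groucho corepressors, had 66.5, 65.6 and 84.0 against 341 and 391 (2.35 ± 0.16, SE, edgeR adjusted p = 8.78e-05). Twist1 and Tle4 passed the filter only through the Fgfr3CE-E12.5 libraries. The other genes called higher were the Groucho corepressors Tle4 and Tle1, the histone deacetylase Hdac4, which represses Runx2, and the BMP mediator Smad1. By role, 4 of 10 corepressors, 2 of 8 coactivators and 1 of 3 inhibitors were called higher in Fgfr3CE-E12.5 cells. Crebbp, an acetyltransferase that serves RUNX proteins as a coactivator, was the gene called higher in Dlx5CE-E12.5 cells, with a normalized CPM of 224, 218 and 200 against 61.9 and 39.4 (-2.08 ± 0.22, SE, edgeR adjusted p = 0.000449). Calls higher in Dlx5CE-E12.5 cells numbered 2 without Dlx5CE-E12.5 replicate 1 and 3, of 25 tested, without Fgfr3CE-E12.5 replicate 2.

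Other transcription factors of the osteoblast lineage held calls in both directions. Of 30 tested of 33, 9 (30%) were called higher in Fgfr3CE-E12.5 cells, where 16.4% of all tested genes were, and 4 (13.3%) in Dlx5CE-E12.5 cells, near the 13.1% of all tested genes. The median log2 fold change was -0.12. Cebpb, a leucine zipper factor that works with Runx2 and Atf4 on the osteocalcin promoter, had a normalized CPM of 2.25, 4.33 and 5.89 in Dlx5CE-E12.5 cells and of 796 and 845 in Fgfr3CE-E12.5 cells (7.63 ± 0.40, SE, edgeR adjusted p = 4.28e-05). This gene has a GC content of 67.2% and shares 18.1% of its 50-base windows with Tmem189, and its log2 fold change was 6.40 once the trend with GC content was removed. Id4, an inhibitor of helix-loop-helix factors, and the AP-1 member Jund followed at 4.23 ± 0.16 and 3.98 ± 0.27 (SE), the latter at 2.71 with the GC trend removed and with 48.3% of its windows shared with Gm11175. The Wnt effectors Lef1, Tcf7 and Ctnnb1, with Foxo1, Hey1 and Fosl1, made up the rest, and Fosl1 was at 0.90, under the fold threshold, with the GC trend removed.

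Zbtb16, a zinc finger factor linked to osteoblast differentiation, led the genes higher in Dlx5CE-E12.5 cells with a normalized CPM of 12.3, 24.4 and 33.7 against 3.43 and 1.28 (-3.32 ± 0.60, SE, edgeR adjusted p = 0.00397). The AP-1 members Fosl2 (-1.58 ± 0.29, SE) and Junb (-1.51 ± 0.26, SE) and the homeobox gene Dlx6 (-1.29 ± 0.36, SE) were the others. Cebpb, Lef1, Tcf7 and Fosl1 passed the filter only through the Fgfr3CE-E12.5 libraries, and without replicate 2 of these they were not tested, which left 26 genes tested and 5 called higher in Fgfr3CE-E12.5 cells. The homeobox genes Dlx5 and Dlx3 were under the fold threshold or under the filter. Dlx5, of which the Dlx5CE-E12.5 cells carry 1 altered allele, had a normalized CPM of 52.6, 60.9 and 67.5 against 123 and 84.9 (0.79 ± 0.20, SE, edgeR adjusted p = 0.0149). Dlx3 was too low for the filter, at 1.60, 2.26 and 0.835 against 5.46 and 7.38, and had a log2 fold change of 2.02 ± 0.48 (SE, edgeR adjusted p = 0.0137) in a fit with a lower filter of 1 CPM. Sox9, the chondrocyte factor that restrains Runx2, had 124, 117 and 122 against 96.8 and 53.7 (-0.69 ± 0.24, SE, edgeR adjusted p = 0.0536).

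Genes on which Runx2 and Sp7 act in osteoblasts were mostly higher in Fgfr3CE-E12.5 cells where they were called. Of 17 tested of 22, 8 (47.1%) were called higher in Fgfr3CE-E12.5 cells, where the share over all tested genes was 16.4%, and 1 in Dlx5CE-E12.5 cells, with a median log2 fold change of 0.99. Smpd3, a sphingomyelinase needed for mineralization, had a normalized CPM of 1.70, 2.31 and 1.95 in Dlx5CE-E12.5 cells and of 51.9 and 46.2 in Fgfr3CE-E12.5 cells (4.63 ± 0.21, SE, edgeR adjusted p = 4.28e-05). Pth1r, the receptor of parathyroid hormone, had 35.0, 44.5 and 41.0 against 433 and 396 (3.37 ± 0.16, SE, edgeR adjusted p = 4.28e-05). Spp1, which encodes osteopontin, had 1242, 806 and 714 against 5273 and 5948 (2.61 ± 0.27, SE, edgeR adjusted p = 0.000391). The osteocyte matrix gene Dmp1, the collagenase Mmp13, the tissue-nonspecific phosphatase Alpl and the pyrophosphate transporter Ank were called in the same direction at 2.17, 1.98, 1.61 and 1.12. With the length trend removed Ank was at 0.91, under the fold threshold, and Smpd3 passed the filter only through the Fgfr3CE-E12.5 libraries.

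Type I collagen and osteocalcin were less uniform. Col1a1 had a normalized CPM of 2247, 1808 and 1520 in Dlx5CE-E12.5 cells and of 2602 and 5182 in Fgfr3CE-E12.5 cells (1.07 ± 0.31, SE, edgeR adjusted p = 0.0278) and was at 0.65, under the fold threshold, with the GC trend removed. Its partner chain Col1a2 had a log2 fold change of -0.07 ± 0.30 (SE, edgeR adjusted p = 0.872). Ibsp, the bone sialoprotein gene, had 2154, 1139 and 1336 against 1694 and 1885, with overlap (0.21 ± 0.28, SE, edgeR adjusted p = 0.564). Bglap, which encodes osteocalcin and is a shared target of Runx2, Cebpb and Atf4, had 51.1, 23.5 and 28.4 against 41.2 and 95.6, again with overlap (0.99 ± 0.43, SE, edgeR adjusted p = 0.0956). Bglap shares 56.6% of its windows with its gene copies, so its count is uncertain. Phex, an endopeptidase of osteocytes, was the gene called higher in Dlx5CE-E12.5 cells, with 66.7, 39.9 and 49.2 against 15.5 and 6.63 (-2.23 ± 0.41, SE, edgeR adjusted p = 0.00415).

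**Figure D4:**
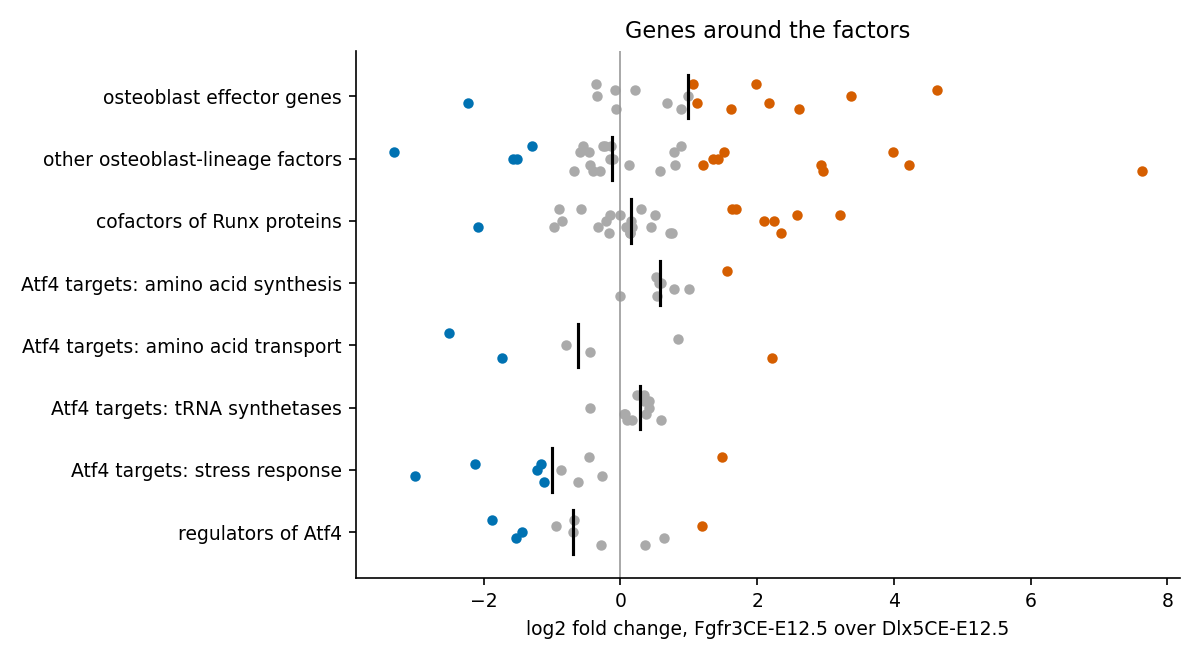
Log2 fold change (Fgfr3CE-E12.5 over Dlx5CE-E12.5) of each tested gene in the lists around the factors, with called genes in orange (higher in Fgfr3CE-E12.5 cells) or blue (higher in Dlx5CE-E12.5 cells), other genes in grey and black bars at the medians. Osteoblast effector genes have a median of 0.99, and the Atf4 targets split by role, from 0.58 for amino acid synthesis to -0.996 for the stress response.

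The targets of Atf4 were called in both directions. Of 36 tested of 41, 3 (8.33%) were called higher in Fgfr3CE-E12.5 cells and 7 (19.4%) in Dlx5CE-E12.5 cells, where all tested genes gave 16.4% and 13.1%, with a median log2 fold change of 0.13, and the medians differed in sign between roles. Among 10 genes of the stress response, 5 were called higher in Dlx5CE-E12.5 cells and 1 in Fgfr3CE-E12.5 cells (median -0.996). Atf5, a close relative of Atf4, had a normalized CPM of 35.5, 26.7 and 30.9 against 4.37 and 3.33 (-3.01 ± 0.25, SE, edgeR adjusted p = 0.000161). Ddit4, an inhibitor of mTORC1, had 126, 143 and 221 against 43.4 and 31.3 (-2.13 ± 0.29, SE, edgeR adjusted p = 0.00126). Ddit3, which encodes CHOP, had 41.4, 50.4 and 72.1 against 25.4 and 21.3 (-1.23 ± 0.26, SE, edgeR adjusted p = 0.0076), and Sesn2 and Nupr1 were called in the same direction, though at -0.95 and -0.91 with normalization by library size alone. The lipoprotein receptor gene Vldlr was the exception, at 1.49 ± 0.26 (SE, edgeR adjusted p = 0.00334). Trib3, a feedback inhibitor of Atf4, was under the filter with a normalized CPM of 1.45 to 2.46 in all 5 libraries.

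Amino acid carriers went both ways, with 2 of 6 called higher in Dlx5CE-E12.5 cells and 1 in Fgfr3CE-E12.5 cells. All tested genes gave 13.1% and 16.4%. Slc7a11, the cystine carrier, had a normalized CPM of 16.9, 15.4 and 12.9 against 2.31 and 3.00 (-2.50 ± 0.28, SE, edgeR adjusted p = 0.000532), and the glutamine carrier Slc1a5 had 847, 885 and 970 against 271 and 269.8 (-1.74 ± 0.15, SE, edgeR adjusted p = 0.000232). Slc7a5, a carrier of large neutral amino acids, had 5.51, 6.88 and 14.3 against 36.5 and 46.4 (2.22 ± 0.40, SE, edgeR adjusted p = 0.00378). Genes of amino acid synthesis had a median of 0.58 with 1 of 8 called, where 29.5% of all tested genes were. This was Psat1 of the serine pathway (1.55 ± 0.29, SE, edgeR adjusted p = 0.00495). Asns, the asparagine synthetase gene, had 30.3, 29.4 and 32.1 against 45.4 and 60.3 (0.79 ± 0.17, SE, edgeR adjusted p = 0.00802), under the fold threshold. The 12 tRNA synthetase genes had a median of 0.29 and stayed under the fold threshold, with Aars the furthest at 0.59 ± 0.12 (SE, edgeR adjusted p = 0.00722). Nars, Mars and Eprs also had an edgeR adjusted p under 0.05, with Eprs lower in Fgfr3CE-E12.5 cells.

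Regulators of Atf4 translation and activity were called higher in Dlx5CE-E12.5 cells for 3 of 10 and in Fgfr3CE-E12.5 cells for 1, where all tested genes gave 13.1% and 16.4% (median log2 fold change -0.69). Txlng, which encodes an inhibitor of Atf4 (FIAT), had a normalized CPM of 35.1, 33.0 and 33.2 against 10.9 and 7.40 (-1.89 ± 0.22, SE, edgeR adjusted p = 0.000685). Nf1, which encodes neurofibromin, a restraint on the kinase that activates Atf4, and the eIF2α kinase gene Eif2ak2 (PKR) were the others, at -1.53 ± 0.34 and -1.44 ± 0.24 (SE). With the length trend removed Nf1 was at -0.86, under the fold threshold. Eif2ak3, which encodes the endoplasmic reticulum kinase PERK, had 7.99, 8.10 and 11.3 against 21.4 and 20.3 (1.19 ± 0.23, SE, edgeR adjusted p = 0.00571).

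Relatives of Sp7 and Atf4 by family were called higher in Dlx5CE-E12.5 cells for 4 of 16 tested of 18 (25.0%) and in Fgfr3CE-E12.5 cells for 2 (12.5%), where all tested genes gave 13.1% and 16.4% (median log2 fold change -0.16). Besides Atf5, the former were Atf7 (-1.88 ± 0.22, SE), Creb3l2 (-1.28 ± 0.14, SE) and Sp4 (-1.20 ± 0.26, SE). Creb3l1, an endoplasmic reticulum factor for collagen transcription in bone, had a normalized CPM of 31.5, 19.8 and 18.6 against 53.5 and 80.6 (1.52 ± 0.28, SE, edgeR adjusted p = 0.00447). Sp6, another zinc finger factor of the Sp family, had 2.74, 8.19 and 9.23 against 30.2 and 38.0 (2.35 ± 0.46, SE, edgeR adjusted p = 0.00576), but shares 86.6% of its windows with Gm11532. Sp6 passed the filter only through the Fgfr3CE-E12.5 libraries and was not tested without either of them, when 15 genes were tested. Sp4 was at -0.99 with normalization by library size alone, under the fold threshold.

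Genes with the most similar profile were found for each factor from the Euclidean distance between log2 CPM values over the 5 libraries, each gene centred on its mean. Thap2 (0.0440), Nktr (0.0590) and Stxbp6 (0.0812) lay nearest to Runx1. Hoxa9 (0.121), S1pr3 (0.137) and Arfgef2 (0.162) lay nearest to Runx2, and Gabpa (0.0855), Mkks (0.0909) and Sacm1l (0.103) nearest to Runx3. For Cbfb these were Rap2a (0.154), Gsap (0.169) and Stim2 (0.231), for Sp7 Adgrd1 (0.112), Ska2 (0.137) and Manba (0.197), and for Atf4 Ick (0.0955), Smim11 (0.103) and Gabarapl1 (0.104). Within a distance of 0.5 there were 100 genes for Cbfb and 171 for Sp7, compared with 557 for Runx2, 641 for Runx1, 1539 for Atf4 and 1566 for Runx3. For Runx3, whose groups overlap, a near profile need not hold a difference between the groups.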

How the data were processed

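Bulk RNA-seq of sorted femoral stromal cells was analysed from 3 Dlx5CE-E12.5 and 2 Fgfr3CE-E12.5 libraries, grouped by their labels. The authors aligned reads to mm10 with TopHat2 (2.0.13) and Bowtie2 (2.2.1), and the submitters' processing notes name HTSeq. The strand setting was not given in the sources used here. The deposited counts are unnormalized reads per gene. The authors also deposited rlog values on a log2 scale, used as an alternative, and a depth-normalized table, not used here. Gene models came from GENCODE M21 (29965 of 30046 features found, 76 not found and 5 reporter sequences).

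Protein-coding genes and reporters that reached 10 CPM in 2 or more libraries (10088) entered the quasi-likelihood test of edgeR 4.0.16 (R 4.3.3) on the counts, with TMM normalization, no covariates and Benjamini-Hochberg adjustment. The SE is the log2 fold change over the root of F. Genes below the filter were read from a fit with a filter of 1 CPM. Alternatives used DESeq2 1.42.0 and limma 3.58.1, and the scripts were tested on simulated data. Intervals cover the spread between libraries, and the floor of 3 counts covers counting error only.

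The factors and lists were chosen with earlier results of these data known. Named genes were the factors, the 3 nearest profiles of each, up to 3 called genes per direction of each list and a set of lineage genes, of which 1 is not reported here. Other listed genes were named after their values were seen. Upstream sequences are from a table of RefSeq windows, in which 5 of the 6 factors were matched.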

Additional observations from a re-analysis of the deposited data

How the results depend on the processing

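Cbfb kept its direction and its call in all 18 alternatives. Runx1 kept its direction but fell under the fold threshold with all features tested (-0.999), the GC trend removed (-0.92), the length trend removed (-0.53), library size alone (-0.82) and limma on rlog values (-0.69), and lost significance in edgeR's glmTreat, which tests against the threshold itself (-1.03, adjusted p = 0.729). Sp7 fell under it with the GC trend removed (0.97), the length trend removed (0.83) and limma on rlog values (0.89), and lost significance in glmTreat (1.03, adjusted p = 0.731). By adjusted p alone Runx2 (-0.67) and Atf4 (-0.61) passed in the main fit. Runx2 lost significance with all features (edgeR adjusted p = 0.0584), the GC trend removed (0.0657) and the length trend removed (0.129). The same held with library size alone (0.137), without the filter on low counts (0.0570) and in limma on rlog values (0.0815). Runx2 kept significance with a filter of 1 CPM (0.0476), DESeq2 size factors (0.0495) and the replicate block (0.0180). So it did in edgeR's exact test (0.0237) and the Wald test of DESeq2 (0.0186). Runx3 turned sign with library size alone (0.064). Leaving out 1 library at a time gave -1.31 to -0.69 for Runx1, 0.90 to 1.26 for Sp7, -0.26 to 0.086 for Runx3, 1029 to 1465 genes higher in Dlx5CE-E12.5 cells and 997 to 1680 higher in Fgfr3CE-E12.5 cells; the lowest of these, 997, was without Fgfr3CE-E12.5 replicate 3. Over all genes, adjusted p alone called 2363 higher in Dlx5CE-E12.5 cells and 2517 in Fgfr3CE-E12.5 cells, glmTreat 659 and 1011, and limma on rlog values 711 in Dlx5CE-E12.5 cells. With the longest transcript as length, Runx2 ranked 3 and Sp7 ranked 4 in Dlx5CE-E12.5 cells. The cause of these shifts was not tested. Counts of listed genes with 1 library left out were chosen after seeing the data.

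The shared replicate numbers refer to different pools of mice. Deviations from the group means correlated at 0.13 for replicates 2 and -0.05 for replicates 3. With 2 Fgfr3CE-E12.5 libraries the deviations in this group are mirror images, so these values cannot decide whether the numbers pair the samples. The samples were treated as unpaired, since the pools differ in genotype. With the replicate block, 1382 genes were called higher in Dlx5CE-E12.5 cells and 1678 in Fgfr3CE-E12.5 cells, and the log2 fold changes were -1.14 for Runx1, -0.85 for Runx2, -0.0067 for Runx3, 2.19 for Cbfb, 1.03 for Sp7 and -0.64 for Atf4. With 2 and 3 libraries a group, few libraries limit precision at any depth.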
